A study of Mus musculus with 6 samples.

Results

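The genes described here are 10 Kruppel-like factors, Klf2, Klf3, Klf4, Klf5, Klf6, Klf9, Klf10, Klf12, Klf13 and Klf15, out of 18193 genes with a named probe set on a mouse expression array. A probe set is the group of short probes that measures a transcript. The 10 genes were picked by name, and each was read from the probe sets whose platform annotation gives that symbol alone. They have 35 probe sets among the 45101 on the array, and the probe set with the highest mean log2 value over the 6 arrays leads for each gene. All 10 leading probe sets had a mean intensity above 111, the 95th percentile of 44 probe sets for olfactory receptor genes, which stands in for probe sets that detect nothing.

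Total RNA came from the uterine horns of female mice, 8 weeks old and of mixed background. The controls were ovariectomized GATA2 f/f females given oil (3 arrays), and the treated group was ovariectomized GATA2 f/f females given P4, the usual short form of progesterone (3 arrays). Both groups therefore share the f/f alleles, a notation that by convention marks loxP-flanked copies, and the labels name no recombinase. Both groups also lack ovaries, the main source of female sex steroid hormones. Dose and timing of the treatment are not in the labels. Nor do the labels say whether the arrays stand for separate animals, so a p-value here speaks only of how far the 6 samples scatter, which may be technical scatter. Whole horns hold several cell types, and on such arrays fewer cells of a type cannot be told apart from less RNA per cell.

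Kruppel-like factors are transcription factors that bind GC-rich and CACCC-type DNA through a run of zinc fingers at their carboxy end. Some activate and some repress, and which cofactor they recruit differs between members. In the uterus Klf9 is known as a partner of the progesterone receptor, Klf15 as a progesterone-induced brake on replication licensing in the epithelium, and Klf5 as an epithelial factor needed for implantation. The question put to the arrays is which of these transcripts differ once the hormone is given.

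None of the 10 genes was called higher after P4, and 2 were called lower, Klf6 and Klf12. A call means an adjusted p under 0.05 from limma, a linear model fitted to log2(intensity + 16) of all genes at once, with Benjamini-Hochberg adjustment over all 18193 genes. At an unadjusted limma p under 0.05 the same 2 genes passed and 0 were higher, beside 26.6% of all genes. The called share was 20% of the 10 genes beside 13% of all genes (2368), and split by direction 6.08% of all genes were higher and 6.94% lower. Groups without overlap were found for the same 2 of the 10 genes and for 31.8% of all genes. With the replicate number as a block, which takes same-numbered arrays as pairs, the 2 genes were again called and 20.9% of all genes were. With so few members these shares describe the 10 genes and do not set them apart from other genes. The median difference of the 10 genes was -0.072 log2, and that of all genes was -0.011. After each array was scaled to the hybridisation control probe sets, which raised the median of all genes to 0.12, neither gene passed (limma adjusted p 0.111 for Klf6 and 0.141 for Klf12), though both differences stayed negative.

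**Figure D1:**
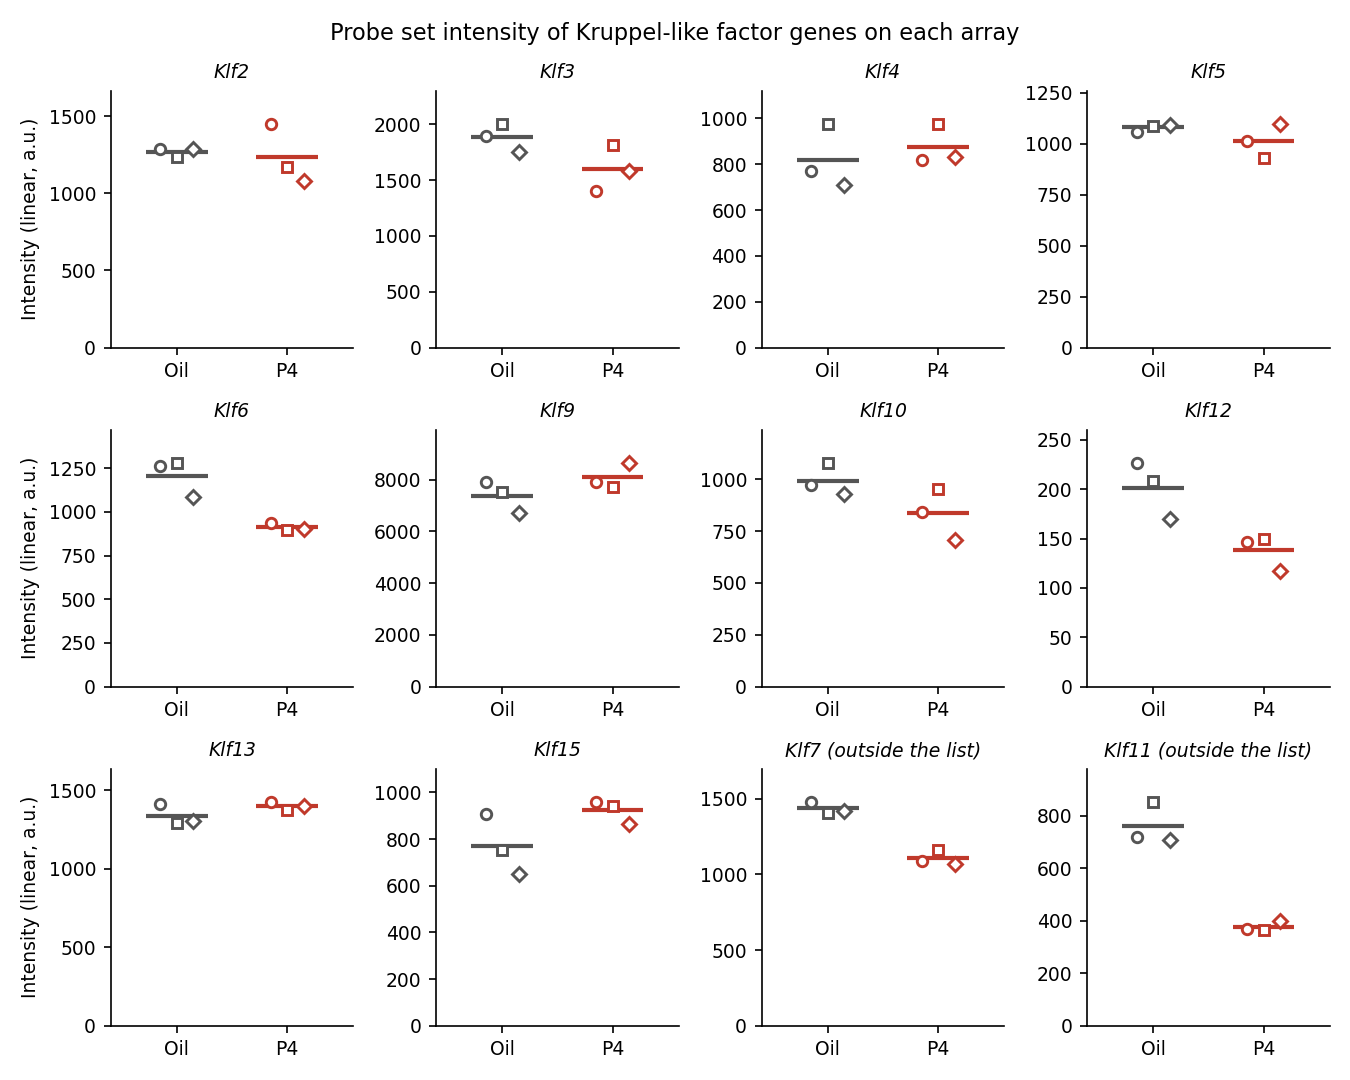
Intensity (linear, arbitrary units, axis from 0) of the leading probe set on each of the 3 oil and 3 P4 arrays, with circle, square and diamond for replicates 1, 2 and 3 and a bar at the group mean. The P4 arrays lie below all oil arrays for Klf6, Klf12, Klf7 and Klf11, and the groups overlap in the other panels. Klf7 and Klf11 are not among the 10 listed genes.

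Klf6, a factor induced early after tissue injury and studied as a growth suppressor, read 1260.4, 1279.6 and 1085 on oil arrays 1, 2 and 3. After P4 it read 939, 897 and 903. The 3 P4 values sat close together and below the lowest oil value, that of oil replicate 3. The mean went from 1208 ± 108 (SD, n = 3) to 913 ± 22.7, a log2 difference of -0.39 ± 0.09 (SE) with a limma adjusted p of 0.0230. Probe sets of a gene share the same RNA and are not replicates. Of the 5 for Klf6 all had a negative difference and 3 had no overlap between the groups, beside 31.8% of all genes. Those 3 were the brightest, with log2 differences of -0.39, -0.36 and -0.42. When every probe set was tested as a feature of its own, the first and the second of these passed (limma adjusted p of 0.0287 and 0.0409), against 10.1% of all probe sets. Calls over all genes, 2368 as reported, fell to 1170 and 993 without oil replicates 1 and 2. They fell to 1401 and 1688 without P4 replicates 2 and 3. The Klf6 call also depended on which arrays were used. It was lost without oil replicate 1 (limma adjusted p 0.0974), oil replicate 2 (0.101), P4 replicate 2 (0.0748) or P4 replicate 3 (0.0618), and when its 5 probe sets were averaged (0.144), while the difference stayed between -0.47 and -0.35 whichever single array was left out.

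Klf12, known as a repressor of the gene for the transcription factor AP-2 alpha, was read near the olfactory receptor level of 111. Its intensity was 227, 209 and 169.6 on the oil arrays and 147, 149.96 and 117 on the P4 arrays. All P4 values lay below all oil values, and in both groups replicate 3 was the lowest. The mean went from 202 ± 29.2 to 138 ± 18.0, a log2 difference of -0.50 ± 0.13 with a limma adjusted p of 0.0484. This is just inside the threshold, and it missed it with quantile normalization (0.0642), with median centring (0.0678), with the mean of its 5 probe sets (0.0643), without probe sets of the _s_at kind that may bind other transcripts (0.172), and without any single array other than oil replicate 3 (0.0638 to 0.163). Of the 5 probe sets 4 had a negative difference and 1 a positive one of 0.08. The positive one was among the 3 of the 5 that were not above the olfactory receptor level. Groups did not overlap for 2 of the negative ones, nor for the positive one. Its highest oil value was 111.48 and its lowest P4 value 111.57. The 3 genes whose 6 array values followed Klf12 most closely, out of 9097 at or above the median intensity, were Kif1b (Pearson r = 0.996), Diras2 (0.994) and Inppl1 (0.994). In all, 147 of those genes had r above 0.95, so with 6 arrays that share 1 contrast a high r is common.

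The other 8 genes did not pass. For all 10 genes, Klf6 and Klf12 included, the 95% interval of the log2 difference lay between -1 and 1, that is, within a halving and a doubling. These intervals come from the same limma fit. Of the 8 genes that did not pass, Klf15 had the largest positive estimate, and Klf10 and Klf3 the largest negative ones.

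**Figure D2:**
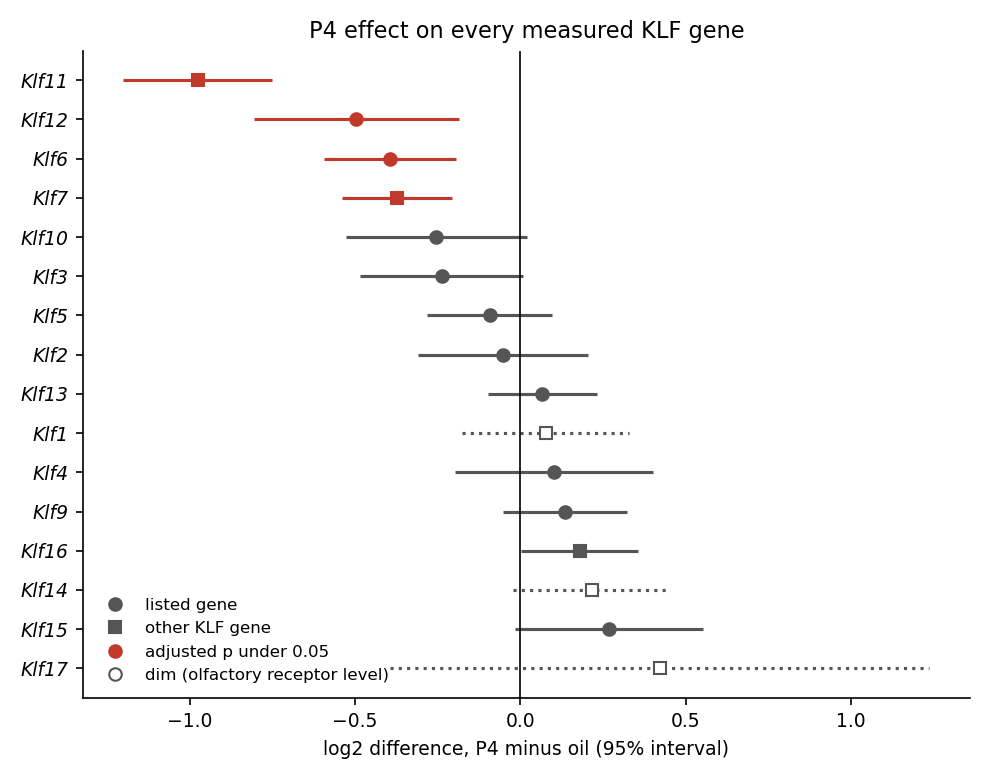
Log2 difference (P4 minus oil, horizontal axis) with its 95% interval for each of the 16 measured KLF genes, sorted by size, with circles for the 10 listed genes and squares for the other 6. Red marks an adjusted p under 0.05: Klf11 at -0.98, Klf12 at -0.50, Klf6 at -0.39 and Klf7 at -0.37 are the 4 such genes, and open symbols with dotted lines mark Klf1, Klf14 and Klf17, which were not above the olfactory receptor level.

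Klf15 read 908, 751 and 649.98 after oil and 959, 942 and 867 after P4. It was higher in all 3 same-numbered pairs, but oil replicate 1 lay above P4 replicate 3, so the groups overlapped. The means were 769.6 ± 129.9 and 922 ± 49.1, a log2 difference of 0.27 ± 0.12 (95% interval -0.02 to 0.55, limma adjusted p 0.215), and it was 0.16 without oil replicate 3. Klf9 had intensities of 7889, 7526 and 6696 after oil and 7913, 7720.0 and 8639 after P4. Its lowest oil array and its highest P4 array were both replicate 3, and the other 4 arrays lay within the range between them. The log2 difference was 0.14 ± 0.08 (95% interval -0.05 to 0.32, limma adjusted p 0.352), and all 7 of its probe sets had a positive difference, from 0.08 to 0.15, with overlap between the groups in each. The difference was 0.069 without oil replicate 3 and 0.088 without P4 replicate 3.

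Klf10, first described as an early gene of the response to TGF-beta, was 970.35, 1078 and 931 after oil and 841.5, 955 and 709 after P4. It was lower in all 3 same-numbered pairs, while P4 replicate 2 lay above oil replicate 3. The log2 difference was -0.25 ± 0.12 (95% interval -0.53 to 0.02, limma adjusted p 0.225), and -0.14 without P4 replicate 3. Klf3, a repressor that recruits the corepressor CtBP, was 1894, 2002 and 1749 after oil and 1403, 1817 and 1579.8 after P4. It too was lower in all 3 same-numbered pairs, with P4 replicate 2 above oil replicate 3. The difference was -0.24 ± 0.11 (95% interval -0.48 to 0.01, limma adjusted p 0.205), and -0.15 without P4 replicate 1. All 7 Klf3 probe sets had a negative difference, and 0 passed when every probe set was tested. Groups did not overlap for 2 of them, and 3 had an unadjusted limma p under 0.05. Of all genes, 31.8% had no overlap and 26.6% had such a p. The matching shares of all probe sets were not counted.

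**Figure D3:**
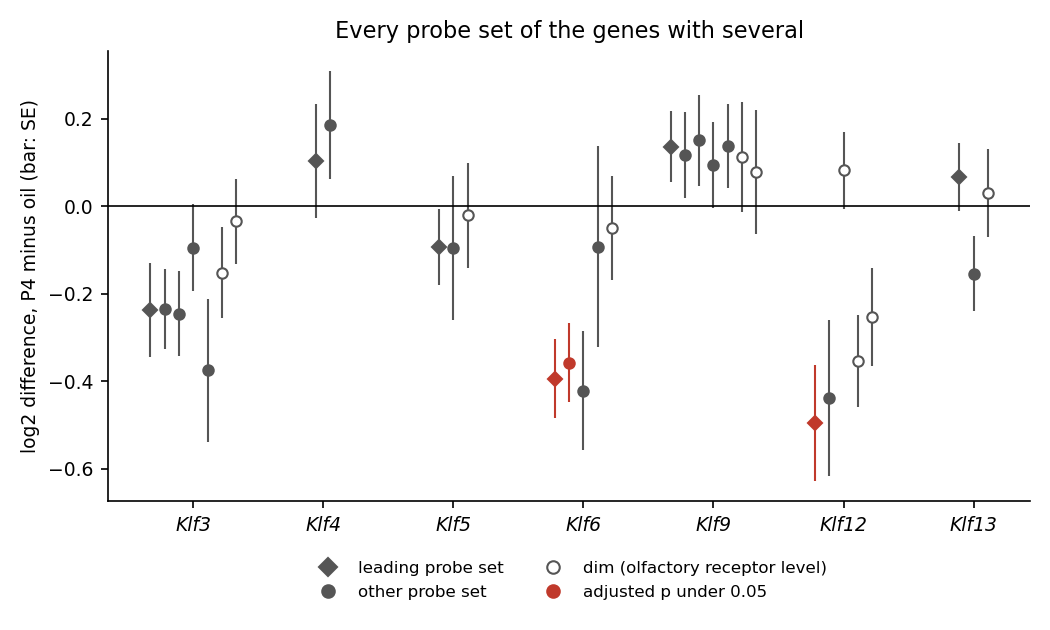
Log2 difference (P4 minus oil, vertical axis) with its SE for every probe set of the 7 listed genes that have more than 1, ordered by brightness within each gene, with the leading probe set as a diamond and open symbols for probe sets not above the olfactory receptor level. All 7 probe sets of Klf9 lie above 0, all 7 of Klf3 and all 5 of Klf6 lie below 0, and Klf12 and Klf13 have probe sets on both sides.

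Klf2, which keeps blood vessel lining and T cells quiescent, was 1283, 1236 and 1285 after oil and 1448, 1170.4 and 1079 after P4. The oil arrays were nearly level and the P4 arrays spread on both sides of them, with an SD of 192 beside 27.9. The log2 difference was -0.05 ± 0.11 (limma adjusted p 0.844), and its sign turned when arrays were scaled to the hybridisation controls (0.075) or P4 replicate 3 was left out (0.038). It was -0.17 without P4 replicate 1 and -0.020 without P4 replicate 2. Klf4, a factor of epithelial differentiation and one of the reprogramming factors, was 769.5, 975 and 711 after oil and 819.9, 973 and 832 after P4. Replicate 2 was the highest in both groups and nearly the same in each. The log2 difference was 0.10 ± 0.13 (95% interval -0.20 to 0.40, limma adjusted p 0.709). With single arrays left out it ran from 0.0097 (without oil replicate 3) to 0.23 (without oil replicate 2).

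Klf5 was 1059, 1089 and 1093 after oil and 1014, 931 and 1097 after P4, with the highest and the lowest value both on P4 arrays. Its log2 difference was -0.09 ± 0.08 (95% interval -0.28 to 0.10, limma adjusted p 0.560), with the opposite sign (0.034) after scaling to the hybridisation controls. It ran from -0.15 without P4 replicate 3 to -0.034 without P4 replicate 2. Klf13, a regulator of the chemokine gene Ccl5 in T cells, was 1414, 1293 and 1303 after oil and 1426, 1373 and 1400.4 after P4. The groups overlapped through oil replicate 1, and the log2 difference was 0.07 ± 0.07 (limma adjusted p 0.645), from 0.044 without oil replicate 2 to 0.11 without oil replicate 1. Its second probe set went the other way without overlap (-0.15 ± 0.09), with an adjusted p of 0.336 when every probe set was tested, and the mean of its 3 probe sets gave -0.019.

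The other KLF genes of the array were also measured, 6 of them, and 2 were lower after P4, Klf11 and Klf7. Klf11, a relative of Klf10 that is likewise tied to the TGF-beta response, had the largest difference of all 16 KLF genes. It read 718, 853 and 708 after oil and 368, 364 and 400.2 after P4. The P4 values sat close together, far below all oil values. The mean went from 759.6 ± 80.7 to 377 ± 19.8, a log2 difference of -0.98 ± 0.10 (95% interval -1.20 to -0.75, limma adjusted p 0.00127). Its call held under all 19 alternatives tried, with differences from -1.02 to -0.85. The highest limma adjusted p, 0.0494, came when both arrays numbered 2 were left out. Averaging its probe sets gave the same -0.98, so no further probe set stands beside the leading one. The alternatives on probe sets, moderation and the replicate block could not change its difference. Klf7 read 1478, 1408 and 1422 after oil and 1086, 1164 and 1067 after P4, again without overlap, a difference of -0.37 ± 0.07 (limma adjusted p 0.0141). Its call was lost without oil replicate 1 (0.0691) or oil replicate 2 (0.0575), without both arrays numbered 2 (0.116) and with scaling to the hybridisation controls (0.117). Over all 16 measured KLF genes 4 were lower and 0 higher, 25% called beside 13% of all genes. That count was 1 without oil replicate 1 or oil replicate 2, and 2 without P4 replicate 2 or P4 replicate 3, and Klf11 was among the calls each time. After scaling to the hybridisation controls Klf11 was the 1 KLF gene called lower, and Klf14, which was not above the olfactory receptor level, was called higher.

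**Figure D4:**
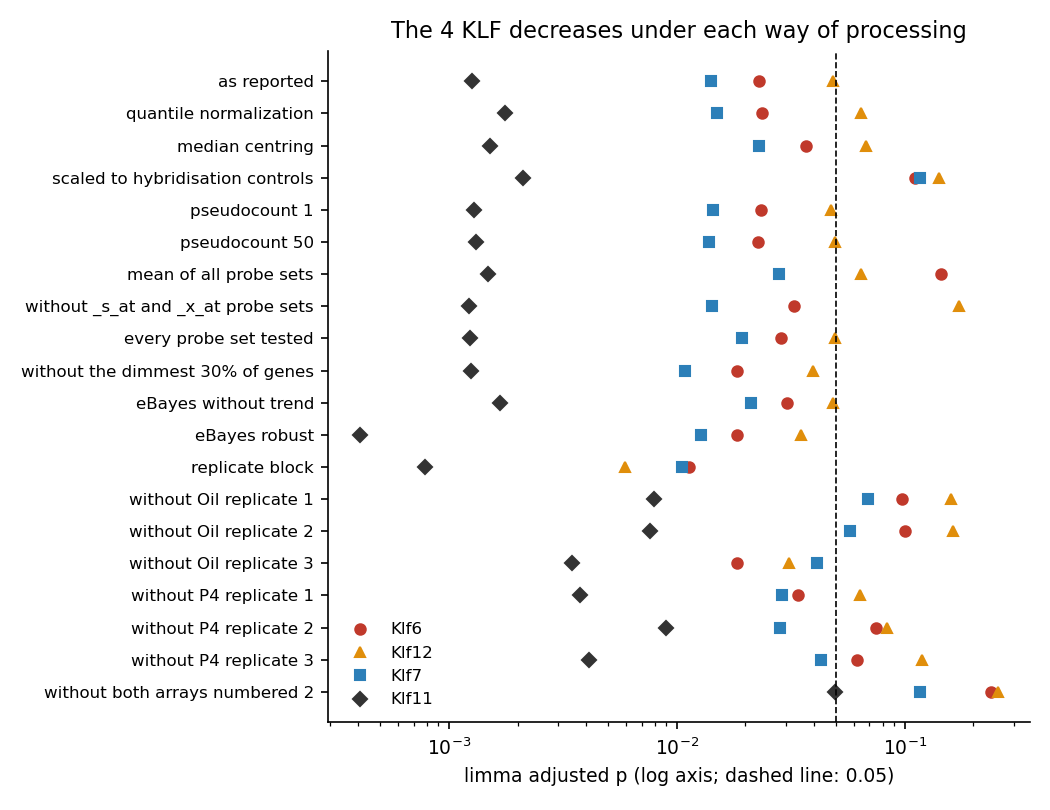
Limma adjusted p (horizontal log axis, dashed line at 0.05) of Klf6, Klf12, Klf7 and Klf11 as reported and under each of 19 alternatives, 1 row each. Klf11 stays left of the line in every row, while Klf12 lies right of it in 11 rows, Klf6 in 7 and Klf7 in 4.

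Promoter sequences of 8 of the 10 genes were found in RefSeq (GRCm38.p6), as windows of 300 bases with 250 before and 50 after a transcript start. The windows of Klf12 (chr14:100149747-100150046) and Klf15 (chr6:90462326-90462625) belong to a start inside the annotated gene. The outermost start of these genes was not searched. Windows were searched on both strands for the GC box GGGCGG, the CACCC box and the palindrome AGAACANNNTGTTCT bound by progesterone and glucocorticoid receptors. The GC box was in 6 of the 8 windows and in 35.7% of all 32851 windows, and the CACCC box was in 6 of the 8 and in 57.5% of all. The palindrome was in 0 of the 8 and in 0.00913% of all. Its 6-base arm AGAACA, which the palindrome contains, was in 0 of the 8 and in 19% of all. No match says only that these letters are not in this window. The 8 windows had 45.7% (Klf12) to 76.7% (Klf3) G or C bases. All windows were not matched to them in base content, so these shares show neither enrichment nor depletion. The 120 bases before the start are shown for the listed gene with the lower adjusted p of the 2 that fell (Klf6), for the KLF gene with the largest decrease (Klf11) and for the known partner of the progesterone receptor (Klf9), with GC and CACCC boxes of either strand in capitals. They run 5′ to 3′ on the gene's own strand, which is the plus strand for each, at chr13:5861369-5861488, chr12:24651251-24651370 and chr19:23141106-23141225.
Klf6: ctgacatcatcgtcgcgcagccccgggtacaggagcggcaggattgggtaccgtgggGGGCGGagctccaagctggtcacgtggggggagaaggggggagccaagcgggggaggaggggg
Klf11: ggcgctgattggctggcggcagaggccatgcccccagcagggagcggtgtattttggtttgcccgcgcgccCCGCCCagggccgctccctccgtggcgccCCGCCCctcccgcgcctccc
Klf9: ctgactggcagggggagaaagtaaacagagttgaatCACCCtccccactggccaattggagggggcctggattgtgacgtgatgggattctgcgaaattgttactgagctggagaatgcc
In these stretches Klf6 has 1 GC box, Klf11 has 2 GC boxes on the minus strand, and Klf9 has 1 CACCC box and no GC box.

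The SP factors, which share the zinc finger fold and the GC box with the KLF family, had 1 lower and 0 higher of 7 measured. The lower gene was Sp4, at 502 ± 43.1 after oil and 365 ± 39.5 after P4 (log2 difference -0.44 ± 0.11, limma adjusted p 0.0340). Of 12 cofactors that KLF proteins recruit, the acetyltransferase gene Kat2a was higher (0.33 ± 0.08, limma adjusted p 0.0343) and its paralog Kat2b lower (-0.34 ± 0.08, 0.0384). With the block, 2 of the cofactors were higher and 2 lower. The calls of Sp4, Kat2a and Kat2b were each lost on leaving out any 1 of oil replicates 1 and 2 and P4 replicates 2 and 3 (up to 0.193, 0.277 and 0.211 over all alternatives).

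Among 6 ubiquitin ligase genes reported to act on KLF proteins, Fbxo32 was lower and 0 were higher. Fbxo32, also known as atrogin-1, read 2934, 3229.99 and 3262 after oil and 1515, 1609 and 1369 after P4. All P4 values lay far below all oil values, with a log2 difference of -1.06 ± 0.09 (limma adjusted p 0.000645) that passed under all alternatives tried. Among 9 genes that act upstream of KLF transcription, Nr3c1, the glucocorticoid receptor (-0.52 ± 0.08, limma adjusted p 0.00556), and Thra, a thyroid hormone receptor (-0.60 ± 0.15, 0.0361), were lower. Nr3c1 lost its call when its probe sets were averaged or both arrays numbered 2 were left out (up to 0.0936), and Thra lost its call after scaling to the hybridisation controls and on leaving out oil replicate 1 or 2 or P4 replicate 2 or 3 (up to 0.334). Mef2a, which drives Klf2 in vessels, was higher (0.27 ± 0.07, 0.0478), a call lost under 12 alternatives (adjusted p up to 0.250). With the block 1 of these upstream genes was higher and 3 were lower.

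Of 21 genes reported as KLF targets 1 was higher and 2 lower after P4, and with the block 2 were higher and 5 lower. Prodh, the proline oxidase gene that Klf15 is known to drive in other tissues, rose from 304 ± 19.7 to 568 ± 121 (0.85 ± 0.14, limma adjusted p 0.00877). Klf15 itself did not pass, and a link between them was not tested. Bcat2, Slc2a4, Gpt and Tat of the same list, named after their values were seen, had differences of 0.31, -0.27, -0.05 and -0.006. None of them passed (limma adjusted p 0.218, 0.147, 0.803 and 0.976). Cdkn1b, the cell cycle inhibitor p27, fell from 2533 ± 163 to 1692 ± 134 (-0.58 ± 0.09, 0.00570), and Ccnd1, cyclin D1, fell by 0.31 on the log2 scale (adjusted p 0.0380, lost without any single array other than P4 replicate 1). The calls of Prodh and Cdkn1b were lost when both arrays numbered 2 were left out (limma adjusted p 0.116 and 0.114). Of 14 replication licensing genes 0 passed in limma, with 1 higher and 2 lower at an unadjusted p under 0.05 and 2 lower with the replicate number as a block. Mcm6, named after its value was seen, had the largest difference of the list (-0.57 ± 0.17, limma adjusted p 0.0640), with overlap between the groups. Mcm7 was 2033 ± 100.2 after oil and 1549 ± 266 after P4 (-0.40 ± 0.12, limma adjusted p 0.0677), and Mcm4 had a difference of -0.03 ± 0.12. Mcm2, singled out after its value was seen because Klf15 is known to act on it, had one of 0.02 ± 0.17 (limma adjusted p 0.970). The background is 13% of all genes for the calls, 20.9% for those with the block and 26.6% for an unadjusted p under 0.05, and no list was tested against other genes.

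Several cell type marker lists differed between the arrays, and their part in the KLF values was not tested. Of 6 endothelial markers 1 was lower (Tek, -0.38 ± 0.10, limma adjusted p 0.0404, lost without any single array other than oil replicate 1). Their summed intensity was 4752 to 5277 after oil and 4273 to 4605 after P4, without overlap. The median difference of that list was negative (-0.24), the direction of Klf6, Klf12, Klf7 and Klf11. Those of the epithelial (-0.34) and fat (-0.29) lists were negative too. The granulocyte (0.62), leukocyte (0.05) and smooth muscle (0.006) medians were positive. The block called 2 endothelial markers lower. Of 7 epithelial markers 0 passed in limma, with 2 lower at an unadjusted p under 0.05. The block called 3 lower, namely Krt18 (limma adjusted p 0.0310), Krt19 (0.0147) and Epcam (0.0465), named after their values were seen. The rest of the list had no block call. Of these Cldn7 (0.26 ± 0.32) and Foxa2 (0.02 ± 0.15) differed the other way, and Krt8 (-0.36 ± 0.25) and Cdh1 (-0.05 ± 0.14) were lower. The sum of all 7 was 14137 to 16813 after oil and 8977 to 15574 after P4. It was lowest on P4 replicate 2, which also had the lowest Klf5 value. The 4 measured fat markers, of which Lep and Cidec were not above the olfactory receptor level, summed to 449 to 705 after oil and 325 to 467 after P4. In that list 0 passed in limma, while 2 were lower at an unadjusted p under 0.05. The block called 2 lower. Of 6 stromal markers 1 was lower, Lum (-0.90 ± 0.18, limma adjusted p 0.0156, lost without oil replicate 2 or both arrays numbered 2, up to 0.0794), and the sums overlapped. Col1a1 and Col3a1 of that list, named after their values were seen, differed the other way (0.57 ± 0.20 and 0.36 ± 0.18). Neither passed (limma adjusted p 0.103 and 0.264), but both were higher with the block (0.0247 and 0.0309). Of 5 granulocyte markers 0 passed in limma, also at an unadjusted p under 0.05, but the sum ran from 597 to 11019 after oil and from 517 to 15425 after P4, high on oil replicate 3, P4 replicate 2 and P4 replicate 3. Immediate early genes, which react to tissue handling as Klf2, Klf4, Klf6 and Klf10 also can, had 1 higher (Jund, 0.25 ± 0.06, limma adjusted p 0.0340) and 1 lower (Btg2, -0.63 ± 0.13, 0.0191) of 17, or 3 higher and 2 lower with the block, with sums of 14872 to 18369 after oil and 16597 to 17678 after P4. The Jund call was lost whichever array was left out, and that of Btg2 on leaving out P4 replicate 2 or either of oil replicates 2 and 3. Of the 4 oviduct and ovary markers, Inha, an inhibin subunit gene, was lower (-0.58 ± 0.11, limma adjusted p 0.0141). That call was lost without oil replicate 2, P4 replicate 2 or both of them (up to 0.173). Inha read 140 ± 14.1 after oil and 89.0 ± 10.3 after P4, with all P4 values below the olfactory receptor level of 111. In the smooth muscle, leukocyte, erythroid and mesothelium lists 0 markers passed in limma or with the block, and at an unadjusted p under 0.05 the 1 that passed was a mesothelium marker, lower after P4.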

How the data were processed

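The deposited table gives each probe set 1 linear intensity on each array, made from biotin-labelled cRNA, per the labels. Their summary method and scaling by the authors are not given in the sources used here. Array number limits the precision. Medians of the 6 arrays differed by 0.07 log2, so no further normalization was applied. Of 45101 probe sets 34945 had 1 gene symbol in the platform annotation, 932 several and 9160 none, and 64 are controls; 34741 of the first matched a RefSeq gene by ID and 0 symbols changed. The test of P4 against oil was limma 3.58.1, run in R 4.3.3 with a trended eBayes, on log2(intensity + 16), which understates changes of dim genes. The fit was also run on simulated data in which genes and arrays varied independently. That run cannot speak to the shared deviations of the real arrays. Figures were drawn with matplotlib 3.10.9.

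The 10 genes and the lists were chosen with earlier results of these data known. Named were the 10 genes, from each gene list the called members (at most 4, by size) or else 2 of high level, called cell type markers, and the 3 genes closest to Klf12, the largest called decrease of the 10. Same-numbered arrays deviated together from their group means (r of 0.53, 0.13 and 0.64, each above 0.1). They were therefore taken as pairs in the replicate block and in statements on same-numbered pairs, while the reported calls use no pairs. The pairing rests on the data, since the labels share only the number. It is weakest for number 2: oil replicate 2 correlated more with P4 replicate 1 (0.29). Alternatives were quantile normalization, median centring, scaling to hybridisation controls, pseudocounts of 1 and 50, other uses of probe sets, leaving out the dimmest 30% of genes, other moderation, the replicate block and arrays left out. No scan dates or other batches are given.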

Additional observations from a re-analysis of the deposited data

How the results depend on the processing

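The count of the 10 genes called, 2 as reported, was 1 with quantile normalization, with median centring or without _s_at and _x_at probe sets. It was 0 after scaling to the hybridisation controls, with the mean of all probe sets or without both arrays numbered 2. It ran from 0 to 2 with each array left out. With the replicate number as a block the same 2 genes were called, and the block changed no call among the 10; over all genes it called 3801 (20.9%) in place of 2368. With each array left out the count over all genes ran from 993 (without oil replicate 2) to 2302 (without P4 replicate 1), and it was 171 without both arrays numbered 2. Scaling to the hybridisation controls, whose P4 minus oil difference was -0.13 log2, moved the median of all genes from -0.011 to 0.12 and the share of higher calls from 46.7% to 75.5%; it adds 1 constant to each array, so differences read against that median stay as reported. It turned the sign of Klf2 (0.075) and Klf5 (0.034). Klf2 also turned without P4 replicate 3 (0.038; the lowest value with an array left out was -0.17), and Klf13 when its probe sets were averaged (-0.019). Over the 10 genes and 19 alternatives 168 of the values kept direction and side of the threshold. Another 18 (7 of Klf6 and 11 of Klf12) kept direction but missed the threshold, and 4 reversed. Of the 168, 12 were of Klf6 and 8 of Klf12. The rest were of genes not called as reported, for which the same side means again not called. The block, the other moderation, the dim-gene filter and the test of every probe set leave each difference as it was. Direction could not change there.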
